A study of Mus musculus with 7 samples.

Results

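The genes described here encode small secreted carrier and surface-fluid proteins: lipocalins, secretoglobins and proteins with the fold of the bactericidal/permeability-increasing protein (BPI). They were chosen by name among the protein-coding genes of the table: Mup, Lcn, Obp or Orm followed by a digit, any name that starts with Scgb or Bpif, and Rbp4, Ptgds, Apod and Apom. This gave 90 of 55536 genes, made up of 21 major urinary proteins (Mup), 10 Lcn genes, 4 odorant-binding proteins (Obp), 3 orosomucoids (Orm), 4 other lipocalins (the single lipocalins), 29 secretoglobins of the Scgb1b and Scgb2b series, 5 other secretoglobins and 14 BPI-fold genes. The group was put forward with its difference between the genotypes known, so its fold changes, adjusted p-values and counts are a description and not independent evidence.

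The cells were medullary thymic epithelial cells (mTECs), sorted from mouse thymus by the surface protein EPCAM, and their RNA was read by SMART-seq. The 4 Cre-negative samples had the genotype Cre(-) Ikzf1fl/fl Pou2f3-/- and the 3 Cre-positive samples Cre(+) Ikzf1fl/fl Pou2f3-/-. All 7 samples therefore shared floxed alleles of Ikzf1, which encodes the transcription factor Ikaros, and null alleles of Pou2f3, the factor that tuft cells require. The study asked how Ikaros affects expression where tuft cells are absent. The Cre driver, the strain, the age and the sex of the animals, and any pooling of animals, are not stated in the labels. Whether a sample is 1 animal is not stated either, and p-values rest on the spread among these samples, which may be partly technical. A library is called by its genotype and label number. Where values of single libraries follow each other, the 4 without Cre come in the order 46, 48, 75, 77, and the 3 with Cre in the order 45, 76, 80.

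Lipocalins fold into a barrel that holds a small hydrophobic molecule such as a pheromone, a retinoid or a steroid, and most are made by liver, glands and the epididymis. Secretoglobins are small dimers secreted in airways, lacrimal and salivary glands, and BPI-fold proteins are lipid-binding proteins of the nasal, oral and airway lining. mTECs transcribe many genes of such peripheral tissues at low level, partly under the regulator Aire, and mimetic mTECs carry programmes of peripheral cell types. Developing T cells are tested against these products.

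Promoter sequence was taken from RefSeq on build GRCm38.p6, which had a window for 73 of the 90 members. The windows are the 200 bases before the start that RefSeq gives, which for some genes differs from the gene's end in the deposited table. They were poor in CG dinucleotides: the median was 1 per window, against 5 over 27025 genes, and 97.3% of the members' windows held at most 5, against 53.5% of all. The letters TATAAA, searched on both strands, were in 26 of the 73 windows (35.6%, against 10.6% of all windows). The letters TGGGAA, the core of the Ikaros motif, also on both strands, were in 13 (17.8%, against 17.3%). All 4 Obp windows and 12 of 22 in the Scgb1b and Scgb2b series held TATAAA, and copies of a duplicated gene are not independent. Neither motif overlapped the other in the windows printed here. The 3 windows shown lie outside the genes as the table bounds them. They are those of Obp1a, read in no Cre-positive library, of Lcn3, which fell, and of Bpifa1, the member with the highest mean normalized count, which was not called. Capitals mark TATAAA and, in Bpifa1, also the reverse complement of TGGGAA, written on the gene's strand. Their places are chrX:78091375-78091574 (minus strand), chr2:25765333-25765532 (plus) and chr2:154142680-154142879 (plus).
Obp1a: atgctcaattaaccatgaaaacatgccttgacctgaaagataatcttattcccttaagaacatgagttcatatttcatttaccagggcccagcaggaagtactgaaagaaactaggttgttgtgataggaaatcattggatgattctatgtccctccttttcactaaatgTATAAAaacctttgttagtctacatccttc
Lcn3: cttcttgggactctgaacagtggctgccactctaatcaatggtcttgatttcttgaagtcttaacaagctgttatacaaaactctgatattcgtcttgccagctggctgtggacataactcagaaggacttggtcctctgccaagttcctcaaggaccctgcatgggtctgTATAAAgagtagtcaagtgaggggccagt
Bpifa1: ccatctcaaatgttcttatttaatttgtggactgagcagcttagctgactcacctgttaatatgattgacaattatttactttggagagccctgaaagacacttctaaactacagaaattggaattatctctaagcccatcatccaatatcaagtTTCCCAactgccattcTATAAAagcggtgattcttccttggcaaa
TATAAA began 30 bases before the RefSeq start in Obp1a and 29 in Lcn3 and Bpifa1; for Obp1a and Bpifa1 that start is also the table's, and in Lcn3 the table's lies further downstream. Bpifa1 shared TATAAA and a low CG count (1, as in Lcn3) with genes that fell. A match is a description of letters and not a binding site.

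Libraries held 9815958 to 12599078 recovered reads, with the Cre-positive ones inside that range, and 19417 to 20467 genes with at least 10 reads were found in Cre-negative against 17169 to 18014 in Cre-positive libraries. Values below are the authors' normalized counts, read counts divided by a size factor per sample. Ikzf1 was not called (log2 fold change 0.46, adjusted p = 0.0916 in limma), and a sum over the gene cannot show a deleted exon. Pou2f3 was not called either (-1.53, adjusted p = 0.414), whereas Aire fell (-0.56, adjusted p = 0.0395). The mTEC markers Epcam, Krt8 and Fezf2 were read in all libraries and not called, while Krt14 and Krt5 rose and Cd80 and Cldn4 fell. Of 9 mTEC markers 2 were higher and 3 lower, with summed levels of 71430 to 122500 and 88260 to 119000 normalized counts. These sums were mostly H2-Aa, which was not called (adjusted p = 0.881 in limma), and hide the changes of the other markers. The 7 T cell markers (526.9 to 1002 against 429.7 to 1310) and the 4 endothelial markers (285.4 to 319.8 against 234.6 to 363.5) had no call, and 1 of 5 cortical epithelial and 1 of 5 B cell markers were lower. The 6 myeloid markers summed to 5094 to 6889 in Cre-negative and 7344 to 11320 in Cre-positive libraries, mostly Lyz2, with 2 lower and 1 higher. Of the 4 fibroblast markers 2 were lower (1012 to 1349 against 1017 to 1389), and none of 4 tested tuft markers was called (285.7 to 500.8 against 347.0 to 610.9). No marker was at 0 in all libraries. The part of these differences in the results below was not tested, and in bulk samples fewer cells of a type and less RNA per cell cannot be told apart.

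These genes gave less signal in Cre-positive mTECs. Their summed level was 13249, 11587.1, 13192.5 and 12139.1 normalized counts without Cre and 2766.8, 3601.9 and 4382.6 with Cre. Every Cre-negative sum was above every Cre-positive one. In each Cre-negative library 62 to 68 of the 90 members had at least 1 read, and in the Cre-positive libraries 36, 53 and 45. The plot of summed levels by family shows that the remainder in Cre-positive libraries was mostly BPI-fold signal.

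**Figure D1:**
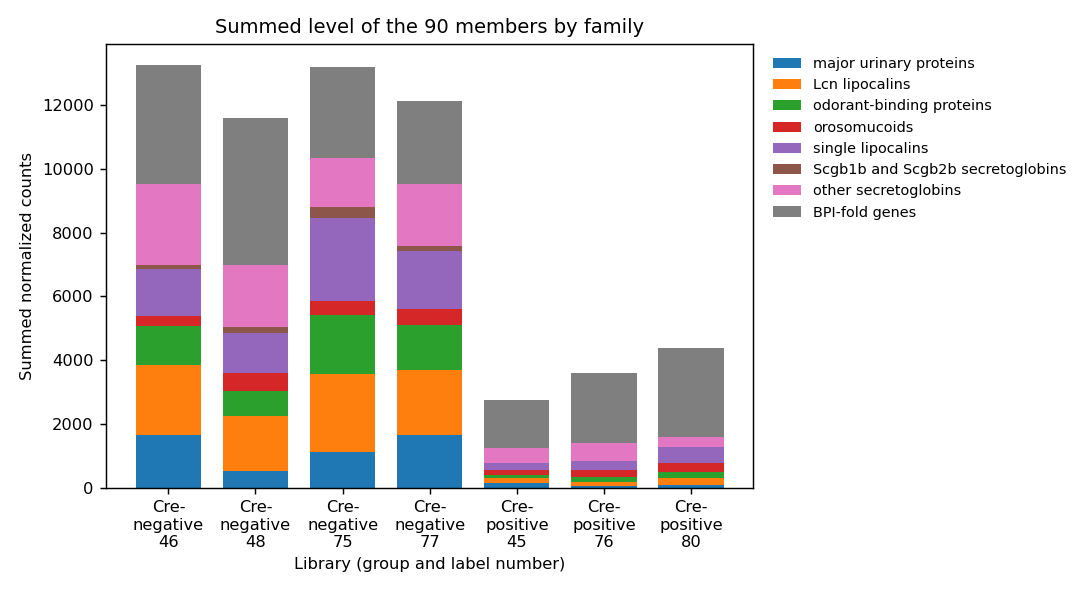
Summed normalized counts of the 90 members in each library, stacked by family (bars start at 0; single libraries, no error). The 4 Cre-negative libraries reach 11587.1 to 13249 and the 3 Cre-positive libraries 2766.8 to 4382.6, of which BPI-fold genes (grey) make up the largest block.

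The test was limma, applied to genes whose mean over the 7 libraries reached 5 normalized counts, on log2(normalized count + 1), with Benjamini-Hochberg adjustment over all 22874 such genes; a gene with an adjusted p under 0.05 is called, and fold changes are Cre-positive minus Cre-negative on that scale. Of the 90 members 57 were tested, 12 had no read in any library, and 21 had reads but too few. In limma 29 of the 57 (50.9%) were lower and 0 higher, where 9.11% of all tested genes were lower, 4.66% higher and 13.8% called in either direction. Since the choice of genes used this contrast, nothing is read from the share. At an unadjusted p under 0.05 there were 44 members. The shares of all genes above are for adjusted p and do not apply to this count, which has no baseline here. edgeR on recovered reads called 28 of 46 tested members lower and 0 higher (8.68% of all genes it tested were lower and 5.06% higher), and DESeq2 37 of 58 lower (12.1%). The authors' deposited table gives an adjusted p for 52 members and calls 36 lower (14.3% of its genes). Its log2 fold changes of members equal those of DESeq2 here with the sign turned, as in Lcn9 (6.22 and -6.22). A call in the authors' table is therefore not a separate check on a call in DESeq2, here or below. The median log2 fold change of the 57 was -3.00, or -3.20 with the 8 that had no Cre-positive read set at their bound, beside -0.10 for all tested genes. Library total scaling moves the median of all genes to -0.29 and that of the members to -3.16. Of the 57, 25 passed the filter only through their Cre-negative level, so those had to differ.

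In 29 of the 57 tested members every Cre-negative library was above every Cre-positive one (14.5% of all tested genes), and in 0 the reverse (10.9%). The map of single libraries shows the Scgb1b/Scgb2b block and most of the Mup block near 0 in Cre-positive samples, apart from Mup6 and Mup4, and more signal left in the BPI-fold block.

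**Figure D2:**
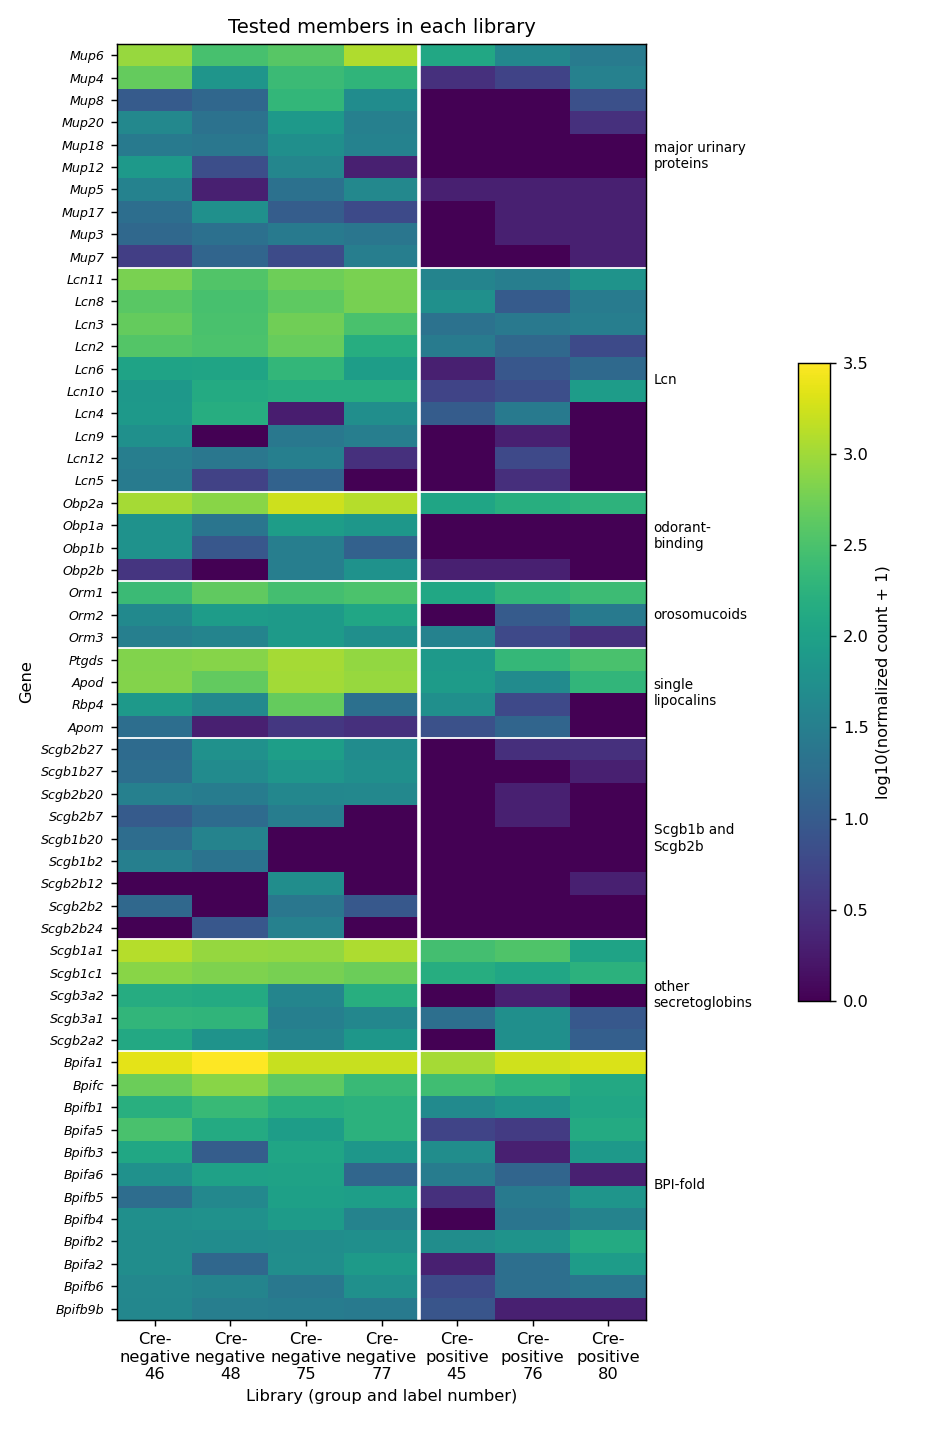
Colour gives log10(normalized count + 1) for the 57 tested members (rows, by family and by Cre-negative mean) in the 7 libraries (columns; the white line parts the genotypes). Obp1a, Obp1b and Mup18 are at 0 in all 3 Cre-positive libraries, while Bpifa1, Bpifc and Orm1 stay visible in all 7.

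Major urinary proteins, the lipocalins that carry pheromones in mouse urine and are made mainly in liver and glands, had the lowest family median, which the filter partly sets: 8 of the 10 tested genes passed it only through their Cre-negative level. Of 21 genes 10 were tested and 7 were lower, at a median log2 change of -3.79 (-3.97 with genes at 0 in all Cre-positive libraries at their bound), and 2 (Mup15 and Mup19) had no read. Mup6 had 911.8, 302.4, 394.6 and 1224.1 normalized counts without Cre and 126.4, 41.1 and 28.0 with Cre. The groups did not overlap, and the Cre-negative libraries themselves spanned a wide range (log2 fold change -3.49, SE 0.54, adjusted p = 0.00129; -4.11 without Cre-positive 45). Mup4, a form known from nasal and glandular tissue, had 466.8, 66.0, 243.2 and 193.3 against 2.1, 4.0 and 33.2. It was lower in limma (log2 fold change -4.6, adjusted p = 0.00280), with -3.91 without Cre-positive 45 and -5.64 without 80. Mup6 made up 57.1% and Mup4 19.6% of the summed Mup level in Cre-negative samples. Their transcripts are also among the more distinct: 4% of the 50-base words of Mup6 and 12.4% of those of Mup4 occur in transcripts of another gene, against 100% in Mup15 and Mup19.

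The other Mup genes were read at low level. Mup20, which encodes the male pheromone darcin, had 42.7, 19.7, 76.6 and 32.1 normalized counts without Cre and 0, 0 and 2.1 with Cre, a pooled ratio of 63.7 (95% exact interval 17.4 to 530, counting error only; adjusted p = 0.00289 in limma), and 50.5% of its 50-base words are shared. Mup18 had 26.8, 23.6, 54.1 and 34.1 against no read in 3 libraries. Against 3 reads over the group it was at least 33.7-fold lower, but 89.6% of its 50-base words are shared with other genes, so its level is uncertain. Mup3 had 14.2, 18.7, 27.0 and 22.7 against 0, 1.0 and 1.0, a ratio of 30 (8.05 to 251; adjusted p = 0.0101). Mup8 stood out by 1 library, with 9.2, 13.8, 209.0 and 48.6 in Cre-negative samples and 0, 0 and 6.2 in Cre-positive ones (log2 fold change -4.20, adjusted p = 0.0276), with 87.5% of its words shared. Its call needed Cre-negative 75 (-3.34, 0.0750 without it), 77 (0.0720), Cre-positive 45 (0.0768) and 76 (0.0817), over a range of 0.0167 to 0.0817 in limma when 1 library at a time is left out. It was -4.80 without Cre-negative 46 and -5.15 without Cre-positive 80. Mup1, the abundant liver form, was under the filter, with 13.4, 0, 8.1 and 0 against 6.3, 0 and 0. The reads of 26 Mup pseudogenes in the same stretch, not normalized, added up to 129 over the 4 Cre-negative and 15 over the 3 Cre-positive samples.

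Liver Mup output is known to be higher in males than in females. Reads of the Y-linked genes Ddx3y, Eif2s3y, Kdm5d and Uty summed to 3938 normalized counts in Cre-negative 48 and to at most 1 in the other 6 libraries. Cre-negative 48 held the lowest Mup sum of its group, 536.7 against 1640.9, 1122.4 and 1658.4 in Cre-negative 46, 75 and 77, and still lay above the 136.8, 54.1 and 77.7 of the Cre-positive libraries. With a Y-linked covariate, Mup6, Mup4, Mup18, Mup20, Mup3 and Mup8 kept their calls and Mup17 did not (-2.57, adjusted p = 0.136). This covariate in effect marks Cre-negative 48 alone and comes close to the fit without that library. The genotype term of that fit in effect compares libraries of both genotypes with next to no Y-linked reads. In it 26 of the 57 tested members were lower, where 5.91% of all tested genes were lower. Whether sex matters among Cre-positive samples cannot be seen, since no Cre-positive library held reads of these Y-linked genes. Mup17, with 17.6, 56.1, 9.9 and 5.2 without Cre and 0, 1.0 and 1.0 with Cre, was called at 0.0376, but lost the call without a filter (0.0754), and without Cre-negative 48 it was -2.77. It was called in 1 of its 7 fits without a library, the one without Cre-negative 77 (adjusted p from 0.0347 to 0.0999 over the 7).

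The Lcn genes, among them epididymal lipocalins and the siderophore-binding Lcn2, were mostly lower. All 10 were tested and 6 were lower, at a median log2 change of -3.58. Lcn3, a lipocalin of nasal glands, had 465.9, 316.2, 556.7 and 308.1 normalized counts without Cre and 19.9, 25 and 30.1 with Cre (log2 fold change -3.96, SE 0.33, adjusted p = 2.5e-05 in limma). Lcn11 had 628.5, 351.6, 536.9 and 627.6 against 36.6, 30 and 62.3 (-3.64, SE 0.33, adjusted p = 3.7e-05). Both sets of libraries were tight and far apart. Lcn2, which starves bacteria of iron by taking up their siderophores, had 364.5, 325.0, 478.4 and 150.9 against 27.2, 14.0 and 5.2 (-4.47, SE 0.54, adjusted p = 2.60e-04), a mean 21.3-fold lower. Lcn8, an epididymal lipocalin, had 397.2, 305.3, 433.3 and 611.0 against 56.4, 9.0 and 28.0 (-4.05, adjusted p = 2.88e-04; -3.38 without Cre-positive 76). Lcn6, another of the epididymis, had 105.6, 109.3, 207.2 and 86.8 against 1.0, 8.0 and 14.5 (-4.21, adjusted p = 0.00185), with -3.36 without Cre-positive 45 and -4.84 without 80.

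The other Lcn genes varied more between libraries. Lcn10 had 72.9, 136.9, 148.6 and 149.9 against 4.2, 6.0 and 86.2, so that Cre-positive 80 overlapped the Cre-negative range (-3.07, adjusted p = 0.0249). It was -4.35 without Cre-positive 80, and -2.32 without 45. Leaving out Cre-negative 48, 75, 77 or Cre-positive 45 or 76 ended the call (adjusted p from 3.59e-04 to 0.0866 over the 7 fits), as did edgeR (0.146), DESeq2 (0.0558) and the Y-linked covariate (0.0890). Lcn4, Lcn5, Lcn9 and Lcn12 were not called in limma (adjusted p from 0.0736 to 0.308), and each had a Cre-negative library at or under 2.1 normalized counts. Lcn9 was called lower in edgeR (0.0395), DESeq2 (0.0026) and the authors' table (0.0023). Lcn12 was called lower in DESeq2 (0.0280) and the authors' table (0.0248), and not in edgeR (0.106). Lcn5, Lcn9 and Lcn12 passed the filter only through their Cre-negative level, so they had to be lower.

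Among odorant-binding proteins, which carry odorants in nasal mucus, 3 of 4 were lower. Obp1a, Obp1b and Obp2b passed the filter only through their Cre-negative level, so they had to be lower. Obp2a had 1075.2, 756.5, 1726.0 and 1294.4 normalized counts without Cre and 114.9, 154.2 and 181.7 with Cre. The lowest Cre-negative value was above the highest Cre-positive one, and the mean was 8.07-fold lower (log2 fold change -2.97, SE 0.28, adjusted p = 4.8e-05 in limma). Obp1a on chromosome X had 60.3, 21.7, 86.5 and 70.3 against no read in 3 Cre-positive libraries, at least 58.1-fold lower (adjusted p = 6.28e-04). Obp1b, nearby on the same chromosome, had 60.3, 7.9, 30.6 and 11.4 against no read, at least 26.8-fold lower (adjusted p = 0.00884), and 73.5% of its 50-base words occur in another gene, most of them in Gm14743. Obp2b was not called in limma, with 2.5, 0, 30.6 and 60 against 1.0, 1.0 and 0 (adjusted p = 0.249). DESeq2 (0.0187) and the authors' table (0.0165) called Obp2b lower.

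**Figure D3:**
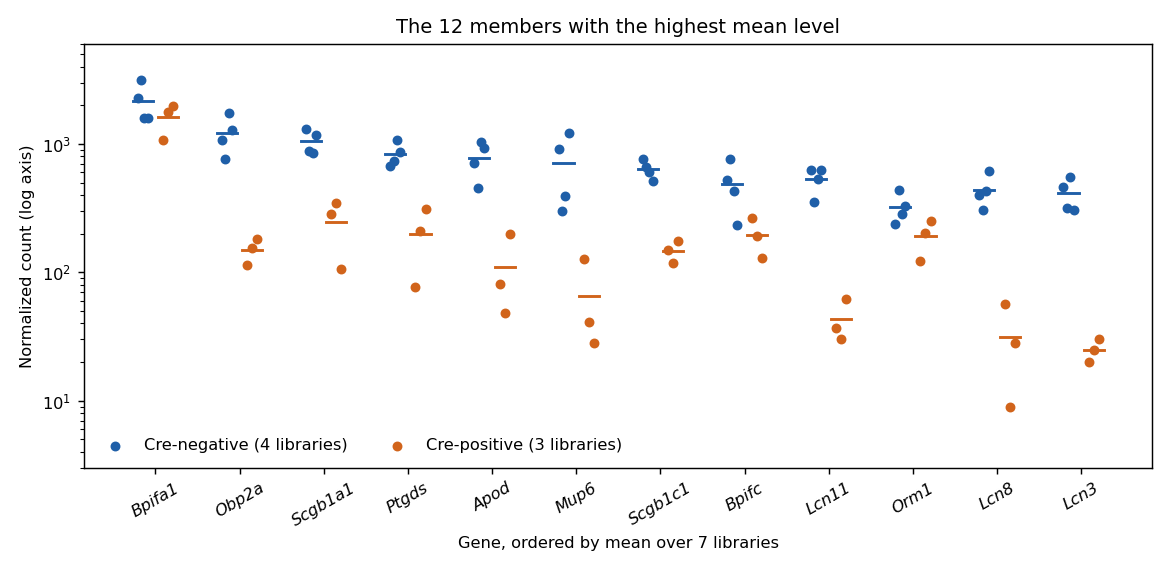
Normalized counts on a log axis of the 12 members with the highest mean, with 4 Cre-negative (blue) and 3 Cre-positive (orange) libraries as points and group means as bars. The groups overlap in Bpifa1, Bpifc and Orm1 and are apart in the other 9, as in Lcn3 with 308.1 to 556.7 against 19.9 to 30.1.

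Of the single lipocalins, Ptgds and Apod fell and Rbp4 and Apom were not called. Ptgds, which makes prostaglandin D2 and also carries retinoids, had 678.8, 732.8, 1072.9 and 860.2 normalized counts without Cre and 76.3, 210.3 and 313.5 with Cre (log2 fold change -2.26, SE 0.38, adjusted p = 0.00224 in limma). Apod, a lipocalin that binds arachidonic acid and steroids, had 705.6, 457.0, 1036.9 and 925.3 against 81.5, 48.1 and 200.3 (-3.00, SE 0.42, adjusted p = 7.07e-04). In both genes all Cre-negative libraries were above all Cre-positive ones. Rbp4, the plasma carrier of retinol, had 77.1, 43.3, 463.9 and 18.6 against 54.3, 5.0 and 0, with overlapping groups (-3.44, SE 1.24, adjusted p = 0.0865). It was called without Cre-positive 45 (-4.94, adjusted p = 0.0153, within 0.0153 to 0.282 over the 7 limma fits that leave out a library), and was -2.04 without Cre-positive 80, -2.56 without Cre-negative 75 and -4.08 without 77. Apom, which carries sphingosine-1-phosphate on lipoproteins, was low in every library, with 17.6, 1.0, 2.7 and 2.1 against 6.3, 13.0 and 0 (0.04, adjusted p = 0.989), and its sign turned in 8 of 14 alternative fits.

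Orosomucoids are acute-phase plasma lipocalins of liver. Orm1 had 239.7, 438.3, 284.7 and 326.7 normalized counts without Cre and 122.3, 201.3 and 251.2 with Cre, and was not called (-0.77, adjusted p = 0.112 in limma). Orm2 had 44.4, 84.7, 79.3 and 117.9 against 0, 9.0 and 26 and was lower (-3.59, SE 0.93, adjusted p = 0.0225), with -2.25 without Cre-positive 45 and -4.63 without 80. It lost its call without Cre-negative 48, 75 or 77 (adjusted p from 0.00538 to 0.0662 over the 7 fits), in edgeR (0.0631) and with the Y-linked covariate (0.0796). Orm3 had 31.8, 36.4, 79.3 and 54.8 against 34.5, 5.0 and 2.1 (-2.47, adjusted p = 0.0601). Orm3 was called without Cre-positive 45 (-3.49, adjusted p = 0.00901, within 0.00901 to 0.181 over the 7 limma fits) and under library total scaling (0.0422), and was -1.73 without Cre-positive 80. Orm1 and Orm2 share 20.4% and 22.7% of their 50-base words with other genes, most of them in the other Orm genes.

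Of the 5 airway and gland secretoglobins 3 were lower, Scgb1a1, Scgb1c1 and Scgb3a2. Scgb1a1, the marker secretoglobin of airway club cells, had 1301.4, 886.5, 844.1 and 1165.2 normalized counts without Cre and 282.1, 346.5 and 105.9 with Cre, a mean 4.29-fold lower (log2 fold change -2.24, adjusted p = 0.00129 in limma). Scgb1c1, a secretoglobin of olfactory and nasal mucosa, had 765.1, 663.9, 599.1 and 512.8 against 149.4, 118.2 and 174.4, the tightest pair of groups of this family (log2 fold change -2.10, SE 0.24, adjusted p = 1.79e-04 in limma). It overlaps Gm45785 and the antisense RNA C330022C24Rik, both on the other strand, and whether reads were counted by strand is unknown. Scgb3a2, another club cell secretoglobin, had 145.0, 136.9, 38.7 and 154.0 against 0, 1.0 and 0. With 1 Cre-positive read the pooled ratio was 343 (95% exact interval 61.3 to 13580, counting error only; adjusted p = 2.16e-04). Scgb3a2 passed the filter only through its Cre-negative level, so it had to be lower. Scgb3a1 had 199.4, 194.0, 31.5 and 40.3 against 17.8, 54.1 and 8.3, with overlap, and was not called (-2.0, adjusted p = 0.107; 0.0280 in DESeq2, which called it). Scgb2a2 was not called either (-3.00, adjusted p = 0.0779). Both Scgb3a genes were lowest in Cre-negative 75 within their group.

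The Scgb1b and Scgb2b genes encode the paired chains of androgen-binding protein, a salivary and lacrimal dimer, and lie in neighbouring pairs. Of 29 genes 10 had no read, 9 were tested and 3 were lower: Scgb1b27, Scgb2b27 and Scgb2b20. The neighbours Scgb1b27 and Scgb2b27 were read side by side, with 17.6, 47.3, 68.5 and 53.8 normalized counts for Scgb1b27 and 15.9, 58.1, 91.9 and 49.6 for Scgb2b27 in Cre-negative 46, 48, 75 and 77. In Cre-positive 45, 76 and 80 they had 0, 0 and 1.0, and 0, 2.0 and 2.1. In both genes Cre-negative 46 was the lowest and 75 the highest of its group. The pooled ratio for Scgb1b27 was 134 (95% exact interval 23.8 to 5326; adjusted p = 0.00159), and Scgb2b27 was called at an adjusted p of 0.00389 in limma. Scgb2b20 had 32.7, 28.6, 40.5 and 42.4 against 0, 1.0 and 0 (ratio 105, interval 18.6 to 4169; adjusted p = 0.00159), with 58.0% of its 50-base words shared with other genes.

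None of the 6 other tested genes of the series was read in all 4 Cre-negative libraries. Scgb2b2 had 14.2, 0, 23.4 and 8.3 normalized counts against no read with Cre, and Scgb2b7 had 9.2, 15.8, 29.7 and 0 against 0, 1.0 and 0. Scgb1b20 was read at 16.8 and 35.5 in Cre-negative 46 and 48 and not in 75 and 77, and Scgb1b2 had 31.0 and 20.7 in the same libraries and none in the others. Scgb2b12 had 50.4 in Cre-negative 75 and none in the other 3. Scgb2b24 had 7.9 and 33.3 in Cre-negative 48 and 75 and none in 46 and 77. None of these 6, named after their values were seen, was called in limma (adjusted p from 0.127 to 0.681). DESeq2 and the authors' table called Scgb2b2 (0.0171 and 0.0151) and Scgb2b7 (0.0265 and 0.0234) lower, and none of the others. The 10 untested genes with reads include Scgb1b19 and Scgb1b30, which were read with Cre alone, at 2 reads and 1 read. Scgb1b2 and Scgb2b2 overlap on opposite strands. All 9 tested genes of the series, the 3 called ones included, passed the filter only through their Cre-negative level, so they had to be lower.

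BPI-fold genes had the smallest median change. Of 14 genes 12 were tested and 4 were lower, at a median log2 change of -1.53, the smallest of the 8 families. Bpifa1 (SPLUNC1), a surfactant-like protein of the nasal and upper airway lining, had 2266.0, 3123.4, 1599.9 and 1589.1 normalized counts without Cre and 1072.1, 1770.5 and 1982.7 with Cre. The groups overlapped (-0.40, SE 0.26, adjusted p = 0.346 in limma). Bpifa1 made up 62.4% of the BPI-fold signal in Cre-negative and 74.0% in Cre-positive samples. Bpifb1, a long BPI-fold protein secreted by airway goblet cells, had 161.7, 224.6, 157.6 and 175.8 against 46, 64.1 and 115.2 and was lower (-1.34, SE 0.36, adjusted p = 0.0267). Bpifc, the only member of its family here outside the chromosome 2 cluster, had 524.6, 763.4, 426.1 and 231.6 against 265.4, 192.3 and 129.8 (-1.24, adjusted p = 0.0412). Both calls were lost in 5 of the 7 limma fits that leave out a library. For Bpifb1 these omit Cre-negative 46, 48, 77, Cre-positive 45 or 76 (adjusted p over the 7 fits 0.00838 to 0.0936). For Bpifc they omit Cre-negative 46, 48, 75, Cre-positive 76 or 80 (0.0126 to 0.141). Both were also lost with the Y-linked covariate (0.101 and 0.173).

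Bpifb9b had 41.1, 30.5, 28.8 and 26.9 against 7.3, 1.0 and 1.0 (-3.33, adjusted p = 0.0138; -4.02 without Cre-positive 45), and shares 71.4% of its 50-base words with Bpifb9a. Bpifb9b passed the filter only through its Cre-negative level, so it had to be lower. Bpifa5 had 310.9, 135.9, 86.5 and 175.8 against 4.2, 3.0 and 138.1. Its call (-3.49, adjusted p = 0.0329) ended when Cre-negative 46, 48, 77, Cre-positive 45 or 76 was omitted (2.09e-04 to 0.123 over the 7 fits), in edgeR (0.244), in DESeq2 (0.355) and with the Y-linked covariate (0.0940). It was -2.77 without Cre-positive 45, -2.58 without 76 and -5.14 without 80. Bpifb2 had 51.1, 49.2, 50.4 and 53.8 against 51.2, 61.1 and 138.1 and was not called (0.56, adjusted p = 0.444). It was steady in the 4 Cre-negative libraries, and Cre-positive 80 was the highest. These 3 genes were picked after their values were seen.

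**Figure D4:**
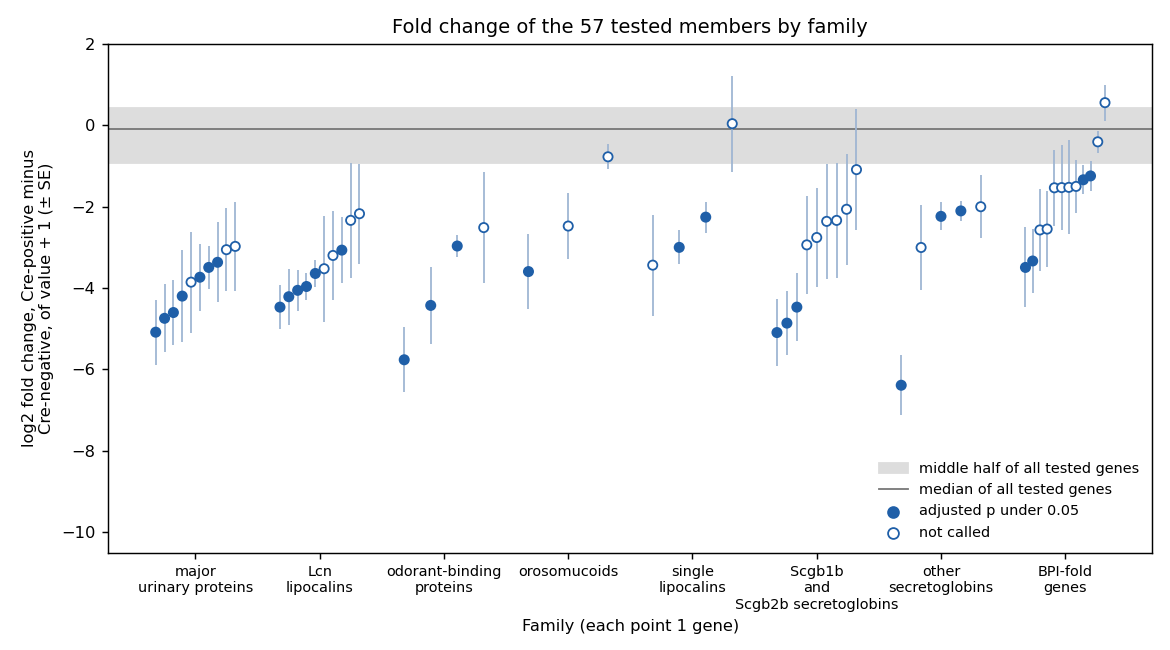
Log2 fold change (Cre-positive minus Cre-negative, of normalized count + 1, ± SE from limma; 4 and 3 libraries) of the 57 tested members by family; filled points have an adjusted p under 0.05. The grey band runs from the lower to the upper quartile of all 22874 tested genes; family medians run from -3.79 in major urinary proteins to -1.53 in BPI-fold genes.

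Per kilobase of annotated exon, the order of levels changed between genotypes. In Cre-negative samples Scgb1a1 was the highest at 2204 normalized counts per kb, followed by Obp2a (1630), Scgb1c1 (1396), Bpifa1 (1388) and Lcn11 (822). Scgb1a1 (1773 to 2734 over 4 libraries) overlapped Obp2a (1017 to 2320), and Obp2a overlapped Scgb1c1 (1127 to 1682), which overlapped Bpifa1 (1029 to 2022), so neighbours in this order were not separated by their spread. All Scgb1a1 libraries were above all Scgb1c1 libraries. In Cre-positive samples Bpifa1 was the highest at 1041 per kb (693.9 to 1283), above Scgb1a1 at 514 (222.5 to 727.9) with overlapping ranges, and then came Scgb1c1 (324), Orm1 (247) and Obp2a (202). Orm1 moved from the 10th to the 4th place and Mup4 from the 12th to the 26th.

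Tested members had a wider median spread among libraries of 1 genotype than tested genes in general. The sets were not matched on level, and the part of level in this difference was not tested. The median SD of log2(normalized count + 1) over the 57 was 0.86 in Cre-negative and 0.91 in Cre-positive libraries, beside 0.53 and 0.55 over all tested genes. Cre-negative 75 was the highest of its group for 23 of the 57, 46 for 15, 77 for 12 and 48 for 7, and it was the highest for 27.5% of all tested genes. Among the 49 with a Cre-positive read, Cre-positive 80 was the highest for 26. The share of all tested genes highest in Cre-positive 80 was not computed, so nothing is read from this count.

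Most members sit in clusters. On chromosome 2 (positions as in the deposited table, equal to GRCm38 annotation for 89 of the 90 members) 11 members from Ptgds to Lcn9 lie between 25466709 and 25825537, and 7 were lower at a median log2 change of -3.20. Of 14 other protein-coding genes inside that stretch 12 were tested, 1 was lower (Fcna) and 0 higher, with a median of -0.27. The Bpif cluster (chromosome 2, 153875045 to 154320646), the Mup cluster (chromosome 4, 59956804 to 62150863) and the Scgb1b and Scgb2b cluster (chromosome 7, 31290508 to 34100837) held no other tested protein-coding gene. Of 44 members with under 10% of their 50-base words in another gene 38 were tested and 18 were lower (median -2.56, or -3.00 with genes at their bound). Of the 46 with more sharing 19 were tested and 11 lower (median -3.37, or -3.59). The treatment of reads that fit several genes is unknown.

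Genes that work with the members, from lists fixed together with the members, moved in both directions. Of the 20 receptors, carriers and enzymes that were tested, 7 were lower and 2 higher, and the median log2 change was -0.59. Among all tested genes 9.11% were lower and 4.66% higher, with a median of -0.10. Lrat, which stores retinol as esters, fell by 5.53 on the log2 scale (adjusted p = 7.74e-04 in limma), and the retinoic acid enzymes Aldh1a1 and Aldh1a2 were lower (-2.80 and -4.32, adjusted p = 0.00240 and 0.00507). Aldh1a3, the most abundant of the 3 Aldh1a genes on the list (mean 735 without and 843 with Cre, 0.22, adjusted p = 0.560), and the retinol dehydrogenase gene Rdh10 (627 against 956, 0.58, adjusted p = 0.147) were not called. Stra6, the receptor of Rbp4, fell by 1.26 (adjusted p = 0.0159), and Lrp2, an endocytic receptor that takes up lipocalins, by 2.50 (adjusted p = 0.0166). Slc22a17, described as a receptor of Lcn2, rose by 1.69 (adjusted p = 0.0210), and S1pr3, a receptor of the lipid that Apom carries, rose by 1.98 (adjusted p = 3.77e-04), while S1pr1 fell by 0.96 (adjusted p = 0.0352). The prostaglandin genes Ptgs1, Ptgs2 and Hpgds were not called.

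Of 20 airway secretory and goblet genes 9 were lower and 0 higher (median -1.10). For this list and those below, the shares of all tested genes were 9.11% lower and 4.66% higher. The lists were chosen with earlier results known, so nothing is read from their counts. Sftpd and Sftpa1, surfactant collectins, were lower (adjusted p = 4.66e-04 and 0.0216 in limma), Sftpd with a log2 fold change of -2.83, and Tff2, Tff3, Cldn10, Muc2, Pigr, Ltf and Gabrp were also lower. The club cell genes Cyp2f2 and Cbr2 had log2 fold changes of 0.66 and 0.18 and were not called (adjusted p = 0.434 and 0.609). Fcgbp (9301 ± 2038 against 8242 ± 2519 normalized counts, SD, n = 4 and 3), Reg3g, Muc5ac and Muc5b were not called. Of 15 tested liver genes 2 were lower, Apoa2 (-1.61, adjusted p = 0.0435) and the bile acid receptor gene Nr1h4 (-4.15, adjusted p = 0.00769), and 0 higher, with a median of -1.47. Of 5 other genes of the lipocalin and BPI folds, Ambp and Lbp were lower (-3.74 and -2.20, adjusted p = 0.00397 and 0.0127), and C8g, Bpi and Pltp were not called.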

How the data were processed

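RNA of EPCAM-positive mTECs from 4 Cre-negative and 3 Cre-positive samples was read by SMART-seq, per the labels' protocols. Per the submitters' processing notes, the tools were STAR 2.7.9a and DESeq2 and the build GRCm39; the counting tool is not given in the sources used here. The deposited values are a signal per gene: the authors' read counts over a size factor for each sample (normalized counts). The table also holds the authors' log2 fold change, fold change (ratio), p-values and variance-stabilized log2 values, and the GC percent of each gene, per the file headers; the last 2 were not used. Coordinates equal GRCm38 annotation (GENCODE M21) for 95.2% of genes, so that build is given. Symbols missing for 3047 IDs came from an ID table.

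Whole reads were recovered (100% of values within 0.0501) from the unrounded mean over samples, and served edgeR and DESeq2 as alternatives, intervals and floors (3 reads over a group); these cover counting error only. limma with an intensity trend was run on log2(normalized count + 1), genotype as the only term. Named members are 20 fixed by name, the 12 with the highest mean and the 12 called ones with the largest fall. Other members named were chosen after their values were seen. The gene lists were fixed together with the members, and the genes singled out from them were chosen after their values were seen. The members and lists were chosen with earlier results of these data known. Tool versions: DESeq2 1.42.0, edgeR 4.0.16, limma 3.58.1 (in R 4.3.3) and Python 3.11.15.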

Additional observations from a re-analysis of the deposited data

Results flagged for a closer look

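Of 41 groups of Cre-negative values checked (32 named members and 9 sums), 3 had 1 library far from the other 3 by Dixon's test at the 95% level, where chance gives about 1 in 20. Rbp4 had 463.9 normalized counts in Cre-negative 75, where the other 3 had 18.6 to 77.1. Apom had 17.6 in Cre-negative 46, where the others had 1.0 to 2.7. Scgb3a2 was low in Cre-negative 75, at 38.7, where the others had 136.9 to 154.0.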

How the results depend on the processing

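The count of members called lower, 29, ran from 24 to 37 over all alternatives, and 0 members were called higher under any of them. Leaving out 1 library each gave 24 to 28 lower members, and 22 of the 29 kept their call in all 7 such fits and under every other setting that tested them. Among those settings the Y-linked covariate comes close to the fit without Cre-negative 48, so it is hardly a separate check. Over all genes, 1066 were called higher and 2084 lower; library total scaling gave 583 higher, the Y-linked covariate 558 higher and 1351 lower, and leaving out 1 library 590 to 1004 higher and 1309 to 1739 lower. The median log2 fold change of tested members, -3.00, was -3.28 with a pseudocount of 0.5, -2.60 with 2, -2.34 without a filter and -3.54 in DESeq2, and it ran from -3.12 to -2.79 over the fits without a library. For the named members, 458 of 491 alternative values kept direction and call, 21 lost the call and 4 gained it. The other 8 were Apom: -0.11 with a pseudocount of 0.5, -0.069 with library total scaling, -0.49 with the Y-linked covariate, -0.35, -0.06 and -0.14 without Cre-negative 48, 75 and 77, and -0.28 and -0.75 without Cre-positive 45 and 76; over the fits without a library it ran from -0.75 to 1.15. Genes near 0 in Cre-positive samples had larger falls in edgeR (Obp1a -8.95, Mup18 -8.16) than in limma (-5.76 and -5.08). Depth limits these genes: 3 reads over the Cre-positive group are 1.03 normalized counts. No paired analysis was possible because the genotypes share no single sample number in the labels. Their numbers fall in 2 ranges that both genotypes share, 45 to 48 and 75 to 80, and with a term for the range 29 members were lower, the same 29 as without it.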
